A study of Mus musculus with 12 samples.

Results

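The major urinary proteins are small secreted carriers encoded by a cluster of closely related genes on mouse chromosome 4. The 7 genes followed here were taken by their symbols in the deposited table: Mup3, Mup7, Mup10, Mup11, Mup17, Mup20 and Mup21. They are 7 of 22557 genes listed and 7 of the 29 entries with a Mup name. All 7 passed the filter on low values, 10 or more normalized reads in 3 or more libraries. Livers came from age-matched female mice that were wild type (WT) or carried a knockout (KO) of Mtdh, and that bore a Py8119 mammary tumour allograft or none. Py8119 cells are an established mouse mammary tumour line, and Mtdh encodes metadherin, a protein studied in tumour growth. The series title names host metadherin, liver lipid metabolism and CD8+ T cells in antitumour immunity. RNA was taken from ground whole liver, and each of the 4 groups, WT_no_tumor, WT_tumor, KO_no_tumor and KO_tumor, held 3 libraries from different mice. How the knockout was made, the strain, the age and the time with a tumour are not stated in the labels. In bulk tissue, fewer hepatocytes and less Mup RNA per hepatocyte cannot be told apart.

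Major urinary proteins belong to the lipocalins, which fold into a barrel around a pocket for small lipophilic molecules. Hepatocytes secrete them into the blood, the kidney passes them into urine, and the bound pheromones are released slowly from scent marks. Their transcription in liver is known to depend on pulsed growth hormone acting through its receptor, JAK2 and STAT5B, with glucocorticoid and thyroid hormone also needed, and it is higher in males than in females. Mup20 encodes darcin, a male pheromone that is itself recognised by females. Mup3 and Mup21 are sequence-divergent members at the end of the cluster, and Mup7, Mup10, Mup11 and Mup17 are among the many near-identical copies.

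The sequences below show which members a sequencing read can tell apart, and this bears on every value that follows. Each is the same 60-base stretch of the third coding exon (GENCODE M21, build GRCm38, minus strand of chromosome 4), 5′ to 3′, with capitals where a base differs from Mup10. Mup22, which is not among the 7, is shown because it held more reads than Mup3 in 10 of the 12 libraries.
Mup10: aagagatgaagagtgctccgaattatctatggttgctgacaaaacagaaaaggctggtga
Mup7: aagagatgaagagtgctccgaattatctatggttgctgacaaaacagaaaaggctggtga
Mup11: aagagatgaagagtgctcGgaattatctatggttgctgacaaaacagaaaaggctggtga
Mup17: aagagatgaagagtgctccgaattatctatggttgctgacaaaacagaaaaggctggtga
Mup22: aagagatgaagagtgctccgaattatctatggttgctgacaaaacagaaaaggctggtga
Mup20: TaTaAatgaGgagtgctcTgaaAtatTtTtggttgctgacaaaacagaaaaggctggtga
Mup3: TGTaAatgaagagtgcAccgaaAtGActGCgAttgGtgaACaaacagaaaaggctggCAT
Mup21: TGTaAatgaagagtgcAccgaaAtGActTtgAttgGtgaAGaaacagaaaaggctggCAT
The stretch of Mup10 lies at chr4:60580693-60580752 and that of Mup3 at chr4:62085973-62086032. Mup7, Mup17 and Mup22 are identical to Mup10 here, and Mup11 differs at 1 base, against 8 bases in Mup20, 17 in Mup3 and 16 in Mup21.

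Over the whole coding sequence, Mup7, Mup10, Mup11 and Mup17 were 98.4% to 98.9% identical to each other. Mup3 was 82.2% to 83.4% identical to those 4 and 94.8% identical to Mup21. Mup20 lay between them, at 90.1% to 91.4% identity to the 4. Of the 50-base windows of its transcript, Mup3 had 84.4% in no other annotated gene, Mup21 80.7% and Mup20 49.5%. The share was 21.9% in Mup17, 13.8% in Mup10, 11% in Mup11 and 3.64% in Mup7, and it was 0% in Mup22. The labels do not say how shared reads were divided among genes, and values were often fractions of reads. Most windows of Mup3 and Mup21 are therefore their own and about as many of Mup20 are shared as not, while values of Mup7, Mup10, Mup11 and Mup17 are uncertain one by one, which is why sums are given beside them.

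In the table's mm39 coordinates the members span 60066469 to 62069100 on chromosome 4, all on the minus strand, with Mup7 first and Mup21 last. Mup3 (ENSMUSG00000066154) lies at 62001713 to 62005579 and Mup10 (ENSMUSG00000078680) at 60534259 to 60538198. Mup20 (ENSMUSG00000078672) lies at 61968471 to 61972395, and Mup21 (ENSMUSG00000066153) at 62066169 to 62069100. All 29 Mup rows, 22 protein-coding and 7 pseudogenes, are on this chromosome.

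Values are deposited as normalized reads, taken to be estimated reads scaled by 1 factor for each library. The step between low values put the depth of KO_tumor replicate 1 at 12700000 reads, to 3 digits, with the others between 25700000 and 43000000. That library had 14899 genes above 0, against at least 17772 elsewhere. KO_no_tumor replicate 3 held 4.84% of its signal in small nucleolar RNA, against at most 1.23% in any other library. Values without KO_tumor replicate 1 are given beside the results it moved most. Mtdh measured 3954 to 5702 normalized reads in WT libraries and 323 to 1063 in KO libraries, so every library went with its genotype label. The hepatocyte markers found in the table, 9 of 10 listed, were above 0 in all 12 libraries. They summed to 2879040 to 3321190 in WT_no_tumor and 3592050 to 4380710 in WT_tumor. The KO sums were 3195720 to 3550360 without a tumour and 3133180 to 4792490 with one. Alb made up most of each of these sums. Neutrophil markers, 10 of 10 found, summed to 52.7 to 199 in WT_no_tumor and 262 to 682 in WT_tumor, with Camp at 0 in 10 libraries and Elane at 0 in 9. Erythroid markers, 7 of 8 found, summed to 1875 to 3629 and 5484 to 8748 in the same groups. In KO livers the neutrophil sums were 74.7 to 92.1 without a tumour and 44.4 to 279 with one, and the erythroid sums were 1930.4 to 3616 and 1905 to 7257. Bile duct markers, 5 of 5 found, summed to 1406 to 1690 in WT_no_tumor and 1862 to 2553 in WT_tumor. Mammary epithelium markers, 7 of 8 found, summed to 3545 to 4300 and 5128 to 8318. Both sums overlapped in KO livers, at 1100 to 1364 and 1295 to 2116 for bile duct, and 3462 to 3931 and 3493 to 8657 for mammary epithelium. The part of these markers in the results below was not tested.

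In WT livers with a tumour the summed level of the 7 genes was lower, and in KO livers with a tumour it overlapped that of KO livers without one. The sum of the 7 genes was 45148, 31795 and 31906 normalized reads in the WT_no_tumor libraries and 17809.6, 13814 and 6280.1 in WT_tumor. In KO_no_tumor it was 53374, 29552 and 34691, and in KO_tumor 37394, 31291 and 25649.9. Every WT_tumor library lay below every one of the other 9 libraries, while 2 of the 3 KO_tumor libraries lay among those without a tumour and KO_tumor replicate 3 lay below all 6 of them. Group means were 36283 ± 7677 in WT_no_tumor, 12635 ± 5855 in WT_tumor, 39206 ± 12536 in KO_no_tumor and 31445 ± 5873 in KO_tumor (SD, n = 3). The difference of mean log2 sums, tumour against none, was −1.63 in WT and −0.29 in KO, beside a pooled SD of 0.49 between libraries of a group. The 2 differences themselves differed by 1.34. Without Mup3, the difference in KO was −1.09 and the 2 differences differed by 0.18, so the contrast between genotypes in this sum rests on Mup3. As these genes were chosen with results of the data known, no test is given for the sum.

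The same sums were set against albumin (Alb), a major plasma protein made by hepatocytes. By this measure the 7 genes had 19.6, 14.3 and 15.4 reads per 1000 Alb reads in WT_no_tumor and 6.08, 4.85 and 1.87 in WT_tumor. The KO values were 21.8, 11.5 and 16.8 without a tumour and 9.66, 13.0 and 9.72 with one. On this scale the log2 difference with a tumour was −2.10 in WT and −0.59 in KO, larger in size than on the deposited scale in each. Alb itself had a higher mean with a tumour in both genotypes. The 7 genes took 0.108% to 0.145% of all signal in WT_no_tumor and 0.0204% to 0.0597% in WT_tumor.

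**Figure D1:**
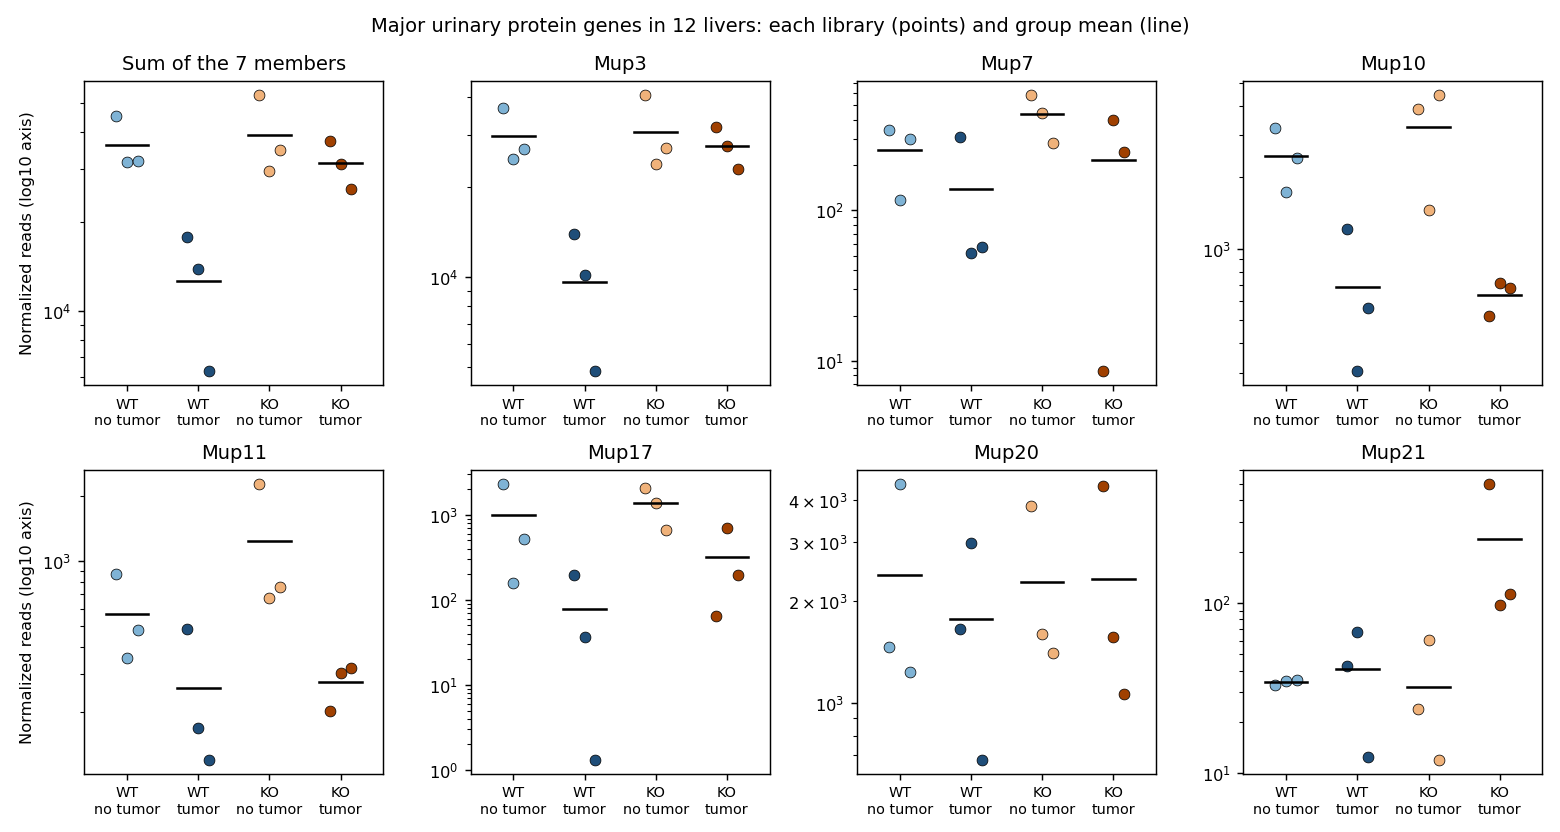
Normalized reads (log10 axis) of the sum of the 7 genes and of each gene in the 12 livers, by group; points are libraries and lines are group means. The 3 WT_tumor sums, 6280.1 to 17809.6, lie under all others, Mup10 is low in both tumour groups, and Mup21 is high in the 3 KO_tumor libraries.

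Of the 7 genes, all 7 had a negative log2 change with a tumour in WT, with a median of −1.30 against 0.00 over all 17380 genes tested. One passed the threshold of an adjusted p of 0.05, Mup3 (limma, Benjamini-Hochberg adjustment over all tested genes), where 0.247% of all genes were called lower. At an unadjusted p under 0.05 there were 4 of 7, against 8.67% of all genes. In KO livers 6 of 7 changes were negative, with a median of −1.95 against −0.08 over all genes. None of the 7 passed there, with limma, where 0% of genes were called in either direction, and 3 of 7 had an unadjusted p under 0.05, as did 12.7% of all genes. Those 3 were Mup10 and Mup11, which were lower, and Mup21, which was higher (2.71). No alternative setting called any of the 7 in KO. Averaged over genotypes, Mup10 was called lower, beside 0.449% of all genes, and 6 of 7 had an unadjusted p under 0.05, against 15.1% of all genes. Mup21 was among those 6 with a positive change (1.33), and the rest of them were negative.

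Mup3 carried most of the reads of the 7. Its values were 36895, 24929 and 26936 normalized reads in WT_no_tumor and 13918, 10201 and 4849.8 in WT_tumor. In KO_no_tumor they were 40719.7, 23966 and 27126, and in KO_tumor 31713, 27522 and 23037. The WT groups did not overlap, as for 8.05% of all genes in this direction, and the KO groups did. The change in WT, −1.72 ± 0.34 (SE), had a 95% interval of −2.45 to −0.99 and an adjusted p of 0.0359 (limma). It lost the threshold without any WT_no_tumor library, without WT_tumor replicate 2 or 3, without KO_no_tumor replicate 3, and with the 6 WT libraries fitted alone, where the adjusted p ranged from 0.0511 to 0.181. The estimate stayed between −2.05 and −1.29 in all 22 alternatives. In KO the change was −0.13 ± 0.34, with an interval of −0.86 to 0.60, so a fall of the size seen in WT lies outside it. Leaving out KO_tumor replicate 1 made it −0.24.

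Mup10 was the member called lower when both genotypes were averaged. It measured 3228, 1731 and 2399 normalized reads in WT_no_tumor, and 1205, 304 and 561 in WT_tumor. It measured 3892, 1457 and 4444 in KO_no_tumor, and 520.03, 715 and 679.7 in KO_tumor. No tumour library reached the lowest tumour-free library of its own genotype. Such a separation in KO was found for 9.48% of all genes in this direction. The change was −2.01 ± 0.46 in WT (limma adjusted p = 0.0728) and −2.21 ± 0.46 in KO (limma adjusted p = 0.275). Averaged over genotypes it fell by 2.11 ± 0.33 on the log2 scale (limma adjusted p = 0.00939), and the call held in all 21 alternatives, with adjusted p between 0.00222 and 0.0343. Without KO_tumor replicate 1 and KO_no_tumor replicate 3 the averaged value was −1.89 (limma adjusted p = 0.0286).

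Mup11 followed the same course at a lower level. Its normalized reads were 867, 356 and 477 in WT_no_tumor, 482, 168 and 119 in WT_tumor, 2279.7, 669 and 752 in KO_no_tumor, and 202, 303 and 319.7 in KO_tumor. The KO groups did not overlap, as for 9.48% of all genes in this direction, and the WT groups did. The change was −1.30 ± 0.54 in WT (limma adjusted p = 0.474) and −1.95 ± 0.54 in KO (limma adjusted p = 0.324). Averaged over genotypes it was −1.63 ± 0.38 with a limma adjusted p of 0.0598, and 7 of 21 alternatives put it past the threshold.

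Mup17 and Mup7 varied the most between libraries of a group. Mup17 measured 2319.5, 159 and 521 in WT_no_tumor and 196, 36.6 and 1.32 in WT_tumor, the last worth 1.19 reads. In KO it measured 2048, 1354 and 669 without a tumour and 64.7, 689 and 194 with one. Its change was −4.49 ± 1.32 in WT (limma adjusted p = 0.206) and −2.57 ± 1.32 in KO (limma adjusted p = 0.412). Without WT_tumor replicate 3 the WT change was −2.75, and without 1 library in turn it ranged from −5.96 to −2.75. The KO change ranged from −3.44 to −1.75 in the same way, with −1.75 without KO_tumor replicate 1. Mup7 measured 341, 117 and 299.7 in WT_no_tumor, 306, 52.4 and 57.3 in WT_tumor, 587, 446 and 282 in KO_no_tumor, and 8.52, 399 and 246 in KO_tumor. The groups overlapped in both genotypes for Mup7, with a change of −1.22 ± 1.09 in WT and −2.10 ± 1.09 in KO. The value of 8.52 came from KO_tumor replicate 1 and was worth 3.46 reads. Without that library the KO change of Mup7 was −0.42.

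**Figure D2:**
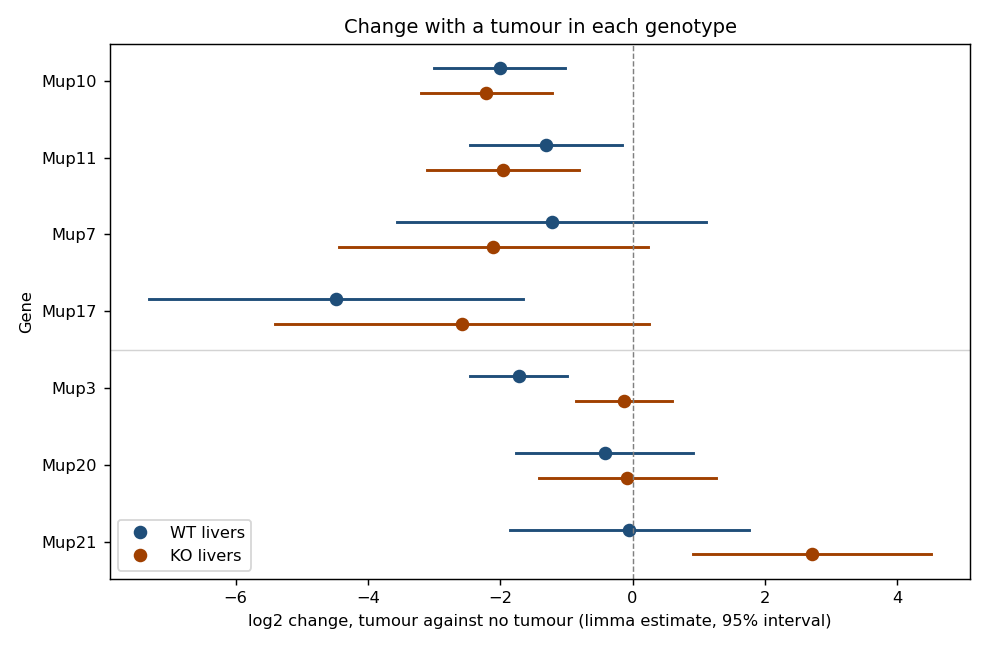
The log2 change of each gene, tumour against no tumour, in WT (blue) and KO (brown) livers, as the limma estimate with its 95% interval. The 4 near-identical copies above the line are negative in both genotypes, Mup3 is at −1.72 in WT and −0.13 in KO, and Mup21 is at −0.05 in WT and 2.71 in KO.

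Mup20 did not differ detectably in any comparison. It measured 1464, 4467 and 1237 in WT_no_tumor, 1659.7, 2985 and 678 in WT_tumor, 3823, 1600.4 and 1405 in KO_no_tumor, and 4384, 1565 and 1062 in KO_tumor. The highest library of each group lay between 2985 and 4467, and the groups overlapped throughout. The change was −0.42 ± 0.62 in WT, with an interval of −1.76 to 0.91, and −0.08 ± 0.62 in KO, with an interval of −1.42 to 1.26. The WT interval includes a change as large as that of Mup3 in WT, and in the fit of all 12 libraries the KO interval does not. The highest KO_tumor value was in replicate 1. Without that library the KO change was −0.67, and without KO_no_tumor replicate 3 as well it was −0.94.

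Mup21 had a positive change in KO. It measured 33.1, 35.0 and 35.4 in WT_no_tumor, 42.9, 67.1 and 12.4 in WT_tumor, 23.9, 60.2 and 11.97 in KO_no_tumor, and 501, 97.2 and 112 in KO_tumor. All 3 KO_tumor libraries lay above the other 9. The KO groups did not overlap, as for 7.34% of all genes in this direction. The change in KO was 2.71 ± 0.84 (limma adjusted p = 0.327) and in WT −0.05 ± 0.84. The highest value was in KO_tumor replicate 1. Without that library the KO change was 1.96, and without KO_no_tumor replicate 3 as well it was 1.43. At these levels Mup21 held 0.0345% to 1.34% of the reads of the 7.

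The 4 near-identical copies and the 3 divergent genes were also summed apart, a grouping by sequence made after values had been seen. Mup7, Mup10, Mup11 and Mup17 together had means of 4272 ± 2251 in WT_no_tumor, 1163 ± 893 in WT_tumor, 6294 ± 2444 in KO_no_tumor and 1447 ± 656 in KO_tumor. Their log2 difference with a tumour was −2.01 in WT and −2.15 in KO (−1.78 without KO_tumor replicate 1). Mup3, Mup20 and Mup21 together had means of 32011 ± 5560.4, 11471 ± 5271, 32912 ± 10198 and 29998 ± 6233 in the same order. Their difference was −1.60 in WT and −0.11 in KO (−0.27 without that library). In KO_tumor the divergent sums overlapped those of KO_no_tumor, and the near-identical sums did not. Taking all 16 coding genes of the near-identical class, with Mup22 among them, the difference was −1.95 in WT and −1.37 in KO (−1.12 without KO_tumor replicate 1).

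Mup3 made up 84.8%, 88.0% and 89.8% of the 7 in KO_tumor, and at most 84.4% in each of the other 9 libraries. Its group means of that share were 81.5% ± 3.01 in WT_no_tumor, 76.4% ± 2.27 in WT_tumor, 78.5% ± 2.42 in KO_no_tumor and 87.5% ± 2.53 in KO_tumor.

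**Figure D3:**
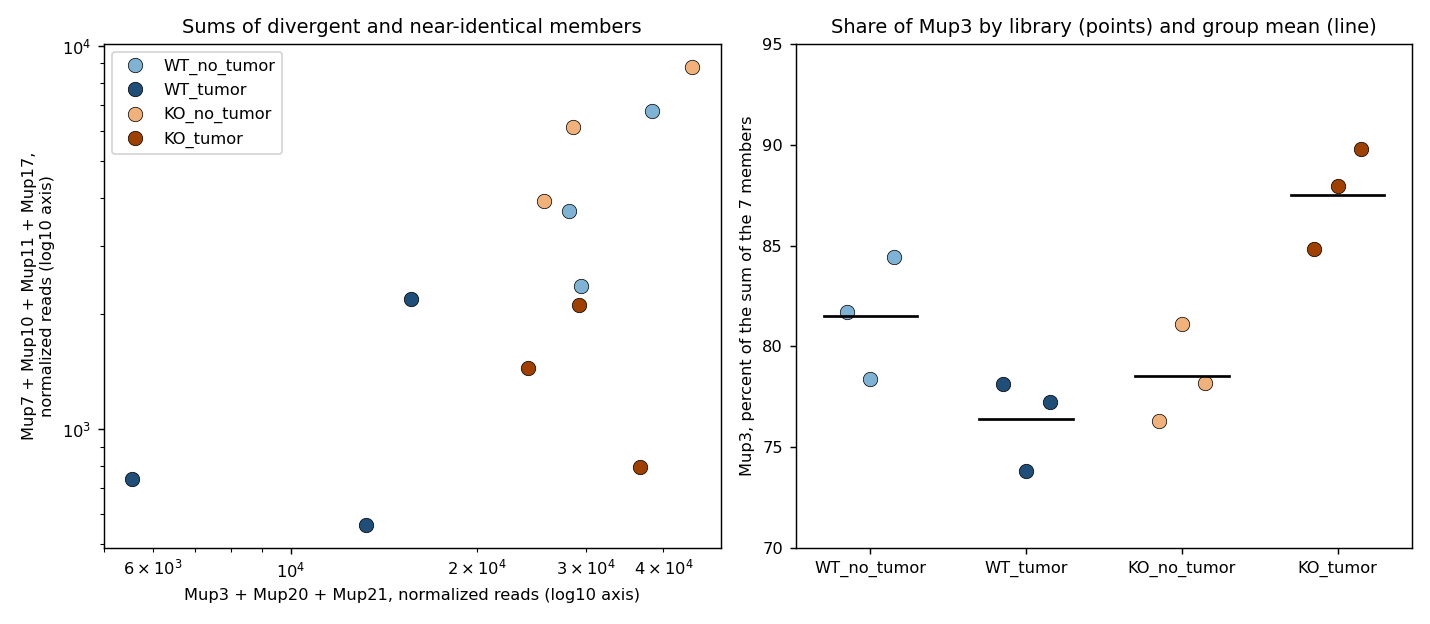
Left, the sum of the near-identical copies against the sum of the divergent genes in each library (normalized reads, log10 axes); right, Mup3 as percent of the 7 by library, with group means as lines, on an axis that starts above 0. The KO_tumor livers sit at the right with low near-identical sums, and their Mup3 share, 84.8% to 89.8%, is above that of the other 9.

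Between genotypes, the comparison without a tumour showed none of the 7 past the threshold (limma), where 0.00575% of genes were called, and 0 of 7 had an unadjusted p under 0.05, against 1.93% of all genes. The median change was 0.30, and the sum differed by 0.09, with its sign turned by quantile normalization (−0.02) and by division by Alb (−0.02). With a tumour, 6 of 7 estimates were higher in KO than in WT, but Mup7 went from −0.01 to 1.67 without KO_tumor replicate 1, and signs turned in 6 of 22 alternatives for Mup7, 4 for Mup20, 2 for Mup10 and 1 for Mup11. Mup3 and Mup21 kept 1 sign in all 22 and did not overlap between genotypes, as for 8.11% of all genes in this direction. Mup3 differed by 1.62 ± 0.34 (limma adjusted p = 0.128) and Mup21 by 2.37 ± 0.84 (limma adjusted p = 0.248), and 0 of 7 were called beside 0.023% of all genes, with 3 of 7 at an unadjusted p under 0.05 against 14.4% of all genes. Mup3 passed the threshold with library weights (1.198, limma adjusted p = 0.0171) and without WT_tumor replicate 2 (1.73, limma adjusted p = 0.0496). Averaged over tumour states all 7 were higher in KO, with a median of 0.66 and 0 called beside 0.0115% of all genes, and 2 of 7 had an unadjusted p under 0.05 against 10.3% of all genes. Mup7, Mup10 and Mup20 turned negative there in 1, 2 and 3 of 21 alternatives, to −0.08, −0.10 and −0.09 at the lowest.

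The difference between genotypes in the response to a tumour was tested for each gene as an interaction. None of the 7 passed (limma), nor did any other gene, 0% of 17380, and 2 of 7 had an unadjusted p under 0.05 against 4.7% of all genes. Mup3 had an interaction of 1.59 ± 0.48 (unadjusted p = 0.00514, limma adjusted p = 0.859). Over the alternatives it ranged from 1.16 to 1.92 with adjusted p between 0.413 and 0.995. Mup21 had 2.76 ± 1.19 (limma adjusted p = 0.859), and Mup10 had −0.20 ± 0.65 with an interval of −1.61 to 1.197. So the lower level of Mup3 in WT_tumor livers was not shown to differ from the change in KO after adjustment over all genes.

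Per kilobase of transcript, which allows for length but not for how shared reads were divided, Mup22 and Mup3 led. Lengths came from GENCODE M21. The levels and ranks of Mup22 and the near-identical copies are thus as uncertain as their reads. Means were 48145 ± 20266 normalized reads per kilobase for Mup22 and 30068 ± 6512 for Mup3 in WT_no_tumor. Mup3 had rank 2 of 22 coding Mup genes in the 3 other groups and rank 1 in KO_tumor, where it was rank 2 without KO_tumor replicate 1. Mup10 (2646 ± 809) and Mup20 (2575 ± 1942) came next among the 7 in WT_no_tumor and did not differ beyond their spread. Mup17 (1079 ± 1248), Mup11 (609.7 ± 287) and Mup7 (273 ± 128) overlapped in the same way, and Mup21 (51.0 ± 1.82) was lowest. With a tumour Mup20 had rank 3 in both genotypes (rank 4 in KO without KO_tumor replicate 1), and Mup10 rank 5 in WT and rank 7 in KO. Mup21 had rank 17 in KO_no_tumor and rank 9 in KO_tumor, where replicate 1 was at 740.0 reads per kilobase and the other 2 at 144 and 165, and it had rank 14 without replicate 1.

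The whole family was summed as well. All 29 entries summed to 88005 ± 32472 in WT_no_tumor, 29646 ± 21530.4 in WT_tumor, 112015 ± 49254 in KO_no_tumor and 59301 ± 6876 in KO_tumor, and the 7 genes held 31.7% to 66.8% of that sum. Their log2 difference with a tumour was −1.75 in WT and −0.84 in KO. Mup22, for which no 50-base window is its own, had means of 41453 ± 17449, 14208 ± 13475, 56109 ± 23599 and 23292 ± 5971 in the same order. Its change was −1.88 ± 0.51 in WT (limma adjusted p = 0.157) and −1.22 ± 0.51 in KO (limma adjusted p = 0.372). In KO_tumor replicate 1 several copies lay outside the range of the other 11 libraries. Mup12 was at 386 there and at most 24.6 elsewhere, while Mup1 was at 0.00301 there and at least 164 elsewhere. The 7 pseudogenes summed to 0 to 317 normalized reads.

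**Figure D4:**
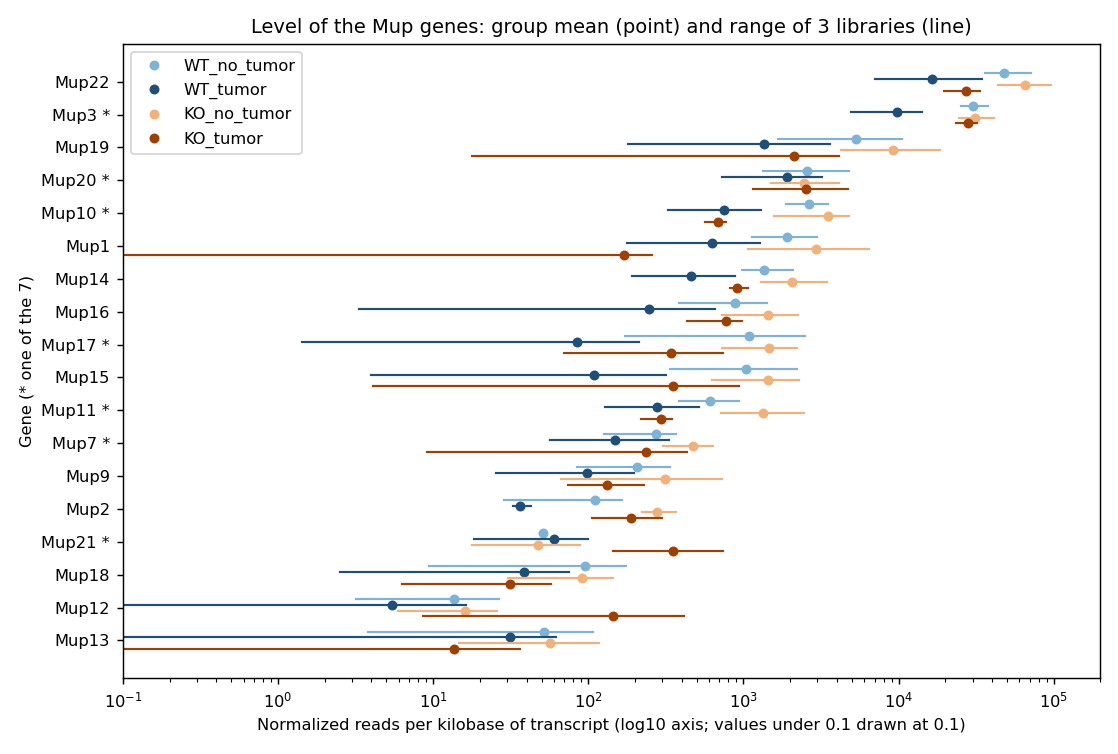
Normalized reads per kilobase of transcript (log10 axis) for the coding Mup genes with a mean of at least 20, as group mean (point) and range of 3 libraries (line); asterisks mark the 7 genes. Mup22 and Mup3 lie above all others, and the range of Mup3 in KO_tumor overlaps that without a tumour whereas its range in WT_tumor does not.

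Across the 12 libraries, which share groups and depth, log2 levels of the near-identical copies had positive correlations. Over their 6 pairs Pearson r ranged from 0.64 (Mup7 with Mup10) to 0.87 (Mup10 with Mup11), and from 0.41 (Mup10 with Mup17) to 0.79 (Mup11 with Mup17) after group means were subtracted. Mup3 had r of 0.86 with Mup17 and 0.60 with Mup10. Mup20 had r between −0.31 and 0.44 with the other 6, and Mup21 between −0.56 and 0.41. Copies that share reads can also trade them, so these values describe the table and no p is given.

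Among 11081 tested protein-coding genes with a mean of at least 50, the 5 whose log2 level followed the sum of the 7 most closely over the 12 libraries were Ndufb8 (r = 0.948), Ecsit (0.941), Srd5a1 (0.933), Lipc (0.929) and Mmadhc (0.928). Ndufb8 encodes a subunit of respiratory complex I, Srd5a1 a steroid 5-alpha-reductase, and Lipc hepatic lipase. Lipc had means of 4116 ± 452 in WT_no_tumor, 1691 ± 460 in WT_tumor, 5072 ± 1451 in KO_no_tumor and 3115 ± 434 in KO_tumor. After group means were subtracted, these 5 kept r between 0.81 and 0.91. The 3 lowest were Abca8b, a lipid transporter gene, Xbp1, a transcription factor of the unfolded protein response, and Ddr2, a collagen receptor gene, with r of −0.905, −0.905 and −0.903. Their r weakened to −0.73, −0.56 and −0.56 within groups. Xbp1 had means of 8565 ± 278, 17104 ± 2412, 8456 ± 495 and 9073 ± 2015 in the order WT_no_tumor, WT_tumor, KO_no_tumor and KO_tumor.

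Growth hormone signalling is the pathway known to drive these genes. Of 16 of its genes tested, 2 rose and 2 fell in WT (limma), where 0.679% of all genes were called. In KO no gene of the table was called, so counts of 0 there are not particular to a list. At an unadjusted p under 0.05 there were 10 of the 16 in WT, 4 higher and 6 lower, against 8.67% of all genes. In KO there were 5, of which 4 were higher, against 12.7% of all genes. Cish, an inhibitor induced by STAT5 and so a common readout of it, fell by 1.22 ± 0.25 in WT (limma adjusted p = 0.0432), from 736 ± 206 to 309 ± 42.6. In KO its change was 0.55 ± 0.25 (limma adjusted p = 0.391), from 572 ± 128 to 826 ± 86.6. Onecut1, a hepatocyte transcription factor gene responsive to growth hormone, fell by 2.20 ± 0.44 in WT (limma adjusted p = 0.0378). Its KO change was −0.14 ± 0.44, from a mean of 1074 ± 531 in KO_no_tumor, against 3180 ± 952 in WT_no_tumor. Socs3, the inhibitor induced by STAT3, rose by 2.69 ± 0.39 in WT (limma adjusted p = 0.00814), and Stat3 itself by 1.17 ± 0.21 (limma adjusted p = 0.0231). Their KO changes were 0.94 ± 0.39 for Socs3 and 0.48 ± 0.21 for Stat3. Socs2, another STAT5 target, was at −1.22 ± 0.41 in WT (limma adjusted p = 0.296) and −0.50 ± 0.41 in KO. The receptor gene Ghr was at −0.43 ± 0.29 in WT and −0.33 ± 0.29 in KO, Stat5b at 0.01 ± 0.27 and 0.62 ± 0.27, and Igf1, the circulating mediator, at −0.67 ± 0.31 and −0.85 ± 0.31. None of these 3 passed the threshold.

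Of 15 regulators studied at Mup genes, among them Nr3c1, Hnf4a and Cebpb, 0 were called in either genotype (limma). Their median was −0.13 in WT and −0.03 in KO. At an unadjusted p under 0.05 there were 5 in WT, 1 higher and 4 lower, against 8.67% of all genes. The KO livers had 3, of which 2 were higher and 1 lower, against 12.7% of all genes. Zhx2, a transcription factor gene known for its sex-biased targets in liver, was at 0.02 ± 0.44 in WT and −0.61 ± 0.44 in KO. Of 17 tested male-biased liver genes (20 listed), 0 were called with a tumour in WT or in KO (limma), with medians of −0.04 and 0.21. At an unadjusted p under 0.05 there were 5 of the 17 in WT, 4 higher and 1 lower, against 8.67% of all genes. The KO livers had 2, each of them lower, against 12.7% of all genes. Of 23 female-biased genes, 4 were called lower and 1 higher in WT (limma), with medians of −1.19 in WT and −0.82 in KO. At an unadjusted p under 0.05 there were 15 of the 23 in WT, 13 of them lower, against 8.67% of all genes. In KO there were 7, all of them lower, against 12.7% of all genes. Those called lower in WT included Acot3, an acyl-CoA thioesterase gene, at −4.11 ± 0.45 (limma adjusted p = 0.00157), and Cyp17a1, of steroid synthesis, at −2.65 ± 0.31 (limma adjusted p = 0.00157). Acot3 was at −1.61 ± 0.45 and Cyp17a1 at −1.73 ± 0.31 in KO. The median over all genes was 0.00 in WT and −0.08 in KO.

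Among other lipocalins the called changes in WT were upward. Of 9 tested, 3 rose and 0 fell: Lcn2, which binds iron-carrying siderophores, by 5.67 ± 0.98 (limma adjusted p = 0.0184), Orm2 by 4.65 ± 0.73 (limma adjusted p = 0.0116) and Orm1 by 1.90 ± 0.39 (limma adjusted p = 0.0418). Orm1 and Orm2 encode acid glycoproteins of the acute phase. Of 20 plasma proteins that rise in the acute phase, 13 were called higher in WT (limma), where 0.679% of all genes were called, with a median of 1.92. At an unadjusted p under 0.05 there were 18 of the 20 in WT, 17 of them higher, against 8.67% of all genes. In KO the median was 0.88, and 13 of the 20 had an unadjusted p under 0.05, 12 of them higher, against 12.7% of all genes. This list and that of other lipocalins share Lcn2, Orm1 and Orm2. Of 11 plasma proteins tested that fall in the acute phase, 0 were called in either genotype (limma), with medians of 0.47 in WT and 0.53 in KO. At an unadjusted p under 0.05 there were 5 in WT, 4 higher and 1 lower, against 8.67% of all genes. The KO livers had 4, all of them higher, against 12.7% of all genes. Alb was in that list, with means above those without a tumour in both genotypes.

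Of 20 tested protein-coding genes within 1000000 bases of the members, 1 was called lower with a tumour in WT, where 0.247% of all genes were. It was Hsdl2, a hydroxysteroid dehydrogenase-like gene, at −1.27 ± 0.27 (limma adjusted p = 0.0489). None was called in KO, nor was any other gene. The median of these neighbours was −0.22 in WT and −0.42 in KO, against 0.00 and −0.08 over all genes. Changes were negative in 15 of the 20 in WT and 16 in KO, against 49.6% and 54.3% of all genes. Ambp, a lipocalin gene among these 20, was at 0.98 ± 0.24 in WT (limma adjusted p = 0.0958) and 0.82 ± 0.24 in KO (limma adjusted p = 0.324).

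Promoters are shown for a divergent and a near-identical pair, since the members of a pair carry similar starts. They are 150 of the 250 bases before the start (RefSeq, build GRCm38.p6, minus strand), 5′ to 3′, with TATATAA on either strand in capitals, a motif added after the sequences had been seen.
Mup3: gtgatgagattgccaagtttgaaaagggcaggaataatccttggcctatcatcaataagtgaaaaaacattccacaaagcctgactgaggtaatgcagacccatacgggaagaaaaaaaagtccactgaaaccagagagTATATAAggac
Mup21: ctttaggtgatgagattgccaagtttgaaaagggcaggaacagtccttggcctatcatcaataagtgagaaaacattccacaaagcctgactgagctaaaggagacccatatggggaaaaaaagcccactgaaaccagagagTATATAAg
Mup10: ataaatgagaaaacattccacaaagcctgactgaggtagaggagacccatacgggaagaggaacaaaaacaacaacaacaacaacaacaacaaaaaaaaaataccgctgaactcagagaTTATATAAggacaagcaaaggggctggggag
Mup17: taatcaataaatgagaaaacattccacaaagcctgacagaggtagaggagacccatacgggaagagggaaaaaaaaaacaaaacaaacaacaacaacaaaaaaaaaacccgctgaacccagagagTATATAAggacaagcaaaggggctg
That of Mup3 is chr4:62087318-62087467 and that of Mup10 is chr4:60582156-60582305. The table of promoters held 6 of the 7 genes, without Mup20. The count of the motif in capitals is no test of enrichment, since it was added after these sequences had been seen. Some of the 6 are also near-copies, with Mup10 and Mup17 90.2% identical and Mup3 and Mup21 89.1%. A shorter motif of the same kind, also searched, was in 0 of these 6 and in 12.4% of promoters. The HNF1 and C/EBP motifs were in 0 of 6, and in 0.00913% and 0.164% of promoters. On both strands of the 250 bases, TATATAA was found in 4 of these 6 and in 3.04% of 32851 promoters, and the STAT motif TTCNNNGAA in 0 of 6 and in 7.02%. The count depends on where a start is annotated, since TATATAA began 30 bases before it in Mup10 and 8 in Mup21. Mup7 and Mup11 had no TATATAA in the bases searched, but a copy at or past the annotated start was not looked for. The bases of Mup11 stop at letters that in Mup17 run into TATATAA. The glucocorticoid receptor half-site TGTTCT was found in Mup3 and Mup21 and in 16.1% of promoters.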

How the data were processed

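RNA of 12 mouse livers in 4 groups of 3 was measured by RNA sequencing. The submitters' processing notes name STAR 2.7.8a, Partek, DESeq2 and build mm39, and the counting program, its use of strand and its annotation are not given in these sources. The authors deposited a signal per gene, taken from its low values to be estimated read counts scaled by 1 factor for each library. The number of reads in each library limits precision, and the recovered depths are given with the results.

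A limma fit (3.58.1, R 4.3.3, with eBayes trend) on log2(value + 1) used all 12 libraries as 4 group means, for genes at 10 or more in at least 3 libraries, 17380 of 22557. Fold changes are on that scale, which understates changes of low genes. P-values were adjusted by Benjamini-Hochberg within each comparison, with a threshold of 0.05. Sums of genes were compared as mean log2 values with no test. Correlations were computed in Python 3.11.15 with numpy 2.4.6. Reads of the 29 Mup entries may be divided among copies, so sums are reported beside single genes. Sequences came from GENCODE M21 and RefSeq for GRCm38, and coordinates of the table from mm39.

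The members, lists and alternatives were chosen with earlier results of these data known. Named genes were the 7 members, the 5 genes most and 3 least correlated with their sum, and list members by call or by role. The fit was checked on simulated data for WT_tumor against WT_no_tumor, with 50 genes changed at each size. It called 14% of genes changed by 1 on the log2 scale, 64% by 2, 70% by 3 and 92% by 4. A gene that was not called may therefore still have changed.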

Additional observations from a re-analysis of the deposited data

How the results depend on the processing

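In the WT tumour comparison, where 1 of the 7 genes was called, 2 were called with a pseudocount of 10, library weights, the replicate block or without both libraries that stand apart, 0 with the compared groups alone, and 0 to 2 with 1 library left out. For the average over genotypes, 1 became 3 with a pseudocount of 10, 2 with quantile normalization, 4 with library weights, 2 with protein-coding genes only, 3 with the replicate block, and 1 to 3 with 1 library left out. For KO_tumor against WT_tumor, 0 became 1 with library weights and 0 to 1 with 1 library left out. Same-numbered libraries did not deviate together (0 of 18 pairs had a correlation over 0.1), so the replicate block rests on shared numbers only.

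Without Mup3 the summed log2 difference moved to −1.09 for the tumour in KO, 0.49 for KO_tumor against WT_tumor and 0.18 for the interaction, and with all Mup entries that in KO to −0.84. Mup21 in WT turned to 0.0183 with a pseudocount of 10, 0.00822 with equal totals and 0.0284 with library weights, and ranged from −0.55 to 0.62 with 1 library left out. Mup20 turned in KO to 0.00345 with equal totals and 0.0319 with quantile normalization. With 1 library left out, Mup20 ranged from −0.92 to 0.15 in WT, −0.67 to 0.37 in KO and −0.54 to 0.0375 averaged, and Mup3 in KO from −0.29 to 0.0929. The cause was not tested. Over all 7 genes and 7 comparisons, 55 of 1057 values under an alternative changed sign, none of them past the threshold. Of 8 correlation values under an alternative, 6 moved. Depth limits Mup7, Mup17 and Mup21 most, whose lowest values are worth few reads.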
